A study of Mus musculus with 9 samples.

Results

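The drug and organic anion transporters of liver are described here across normal, CCl4-injured and schisandrin B-treated rats. They were chosen by gene symbol as 10 members: the uptake carriers Slco1a1, Slco1a4, Slco1b2 and Slc22a8, the bile canalicular pumps Abcb1a, Abcb1b, Abcb4 and Abcc2, and the sinusoidal pumps Abcc3 and Abcc4. Of these, 9 were matched to rows among the 37203 gene rows of the series, and all 9 passed the filter on low counts, which left 14581 genes tested. Slco1a4 was not analysed here.

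The 9 liver libraries, 3 per group, came from Wistar rats that the labels describe as male. The schisandrin B group was given CCl4 (carbon tetrachloride, converted to a toxic radical by liver cytochromes) by gavage for 8 weeks, as 3 doses a week of 2 mL/kg diluted to 50% with olive oil, together with daily schisandrin B, a lignan of Schisandra fruit, over the last 4 weeks. Doses of 25 and 50 mg/kg were used in the study; which of them applies to these 3 libraries is unstated. The fibrosis group received the same CCl4 course alone, and the normal group received olive oil for the same time. No genetic alteration is named for any group, and since no label ties a library to an animal of its own, the errors and p-values given here reflect differences between libraries, which may be technical.

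Hepatocytes take up bile acids, bilirubin, hormones and drugs from sinusoidal blood through organic anion transporting polypeptides (Slco genes) and organic anion transporters (Slc22 genes). After metabolism, pumps of the ATP-binding cassette family move the products across the canalicular membrane into bile, and a further set returns them across the sinusoidal membrane to blood. In injured or cholestatic liver, uptake carriers are known to be repressed and some efflux pumps induced.

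The libraries held 10320299 to 16255167 counts assigned to genes. Hepatocyte identity was clear in every library: 14 hepatocyte markers summed to 207726 to 230829 CPM (counts scaled to library size) in schisandrin B libraries, 70133 to 114972 CPM in fibrosis libraries and 246528 to 279166 CPM in normal libraries. Of these 14 markers, 11 were lower and 0 higher in fibrosis than in normal libraries, and 9 were higher and 0 lower in schisandrin B than in fibrosis libraries (edgeR, Benjamini-Hochberg adjusted p under 0.05). The shares over all tested genes were 22.9% lower in the first comparison and 22.5% higher in the second. In bulk tissue, fewer hepatocytes and less transcript per hepatocyte cannot be told apart. The 6 kidney markers, of tubule and glomerulus, were checked because Slc22a8 is abundant in kidney. They summed to at most 0.0956 CPM in schisandrin B, 0.235 CPM in fibrosis and 0.258 CPM in normal libraries.

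The normal libraries went against their label in sex-linked transcripts. The Y-linked genes Kdm5d and Eif2s3y had 12.3 ± 1.19 and 11.8 ± 1.46 CPM in schisandrin B libraries, 8.04 ± 2.39 and 10.4 ± 1.16 CPM in fibrosis libraries (SD, n = 3), and 0 counts in all 3 normal libraries. The third Y-listed row, Ddx3y, was low throughout, at 0.862 ± 0.578, 1.24 ± 0.279 and 1.48 ± 0.97 CPM in schisandrin B, fibrosis and normal libraries (SD, n = 3). A row named Ddx3 had 22.1 ± 2.54, 9.74 ± 3.08 and 0.0512 ± 0.0453 CPM in the same group order, the division shown by Kdm5d and Eif2s3y. Whether Ddx3y or Ddx3 is the row of the Y-linked gene was not checked. Of 10 genes known as male-biased in rat liver, 9 were higher and 1 lower in fibrosis than in normal libraries, and schisandrin B against normal gave 9 higher and 0 lower. Shares over all tested genes were 25.4% higher and 22.9% lower in the first comparison, and 5.25% in each direction in the second. All 8 female-biased genes were lower in both comparisons. They summed to 1110 to 1393 CPM in schisandrin B, 203 to 354 CPM in fibrosis and 11974 to 19674 CPM in normal libraries. A difference of treatment and one of sex therefore cannot be told apart wherever a transporter is set against normal libraries. Schisandrin B against fibrosis does not use the normal libraries for its means, and a fit without them called the same number of transporters, 4 higher and 3 lower.

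**Figure D1:**
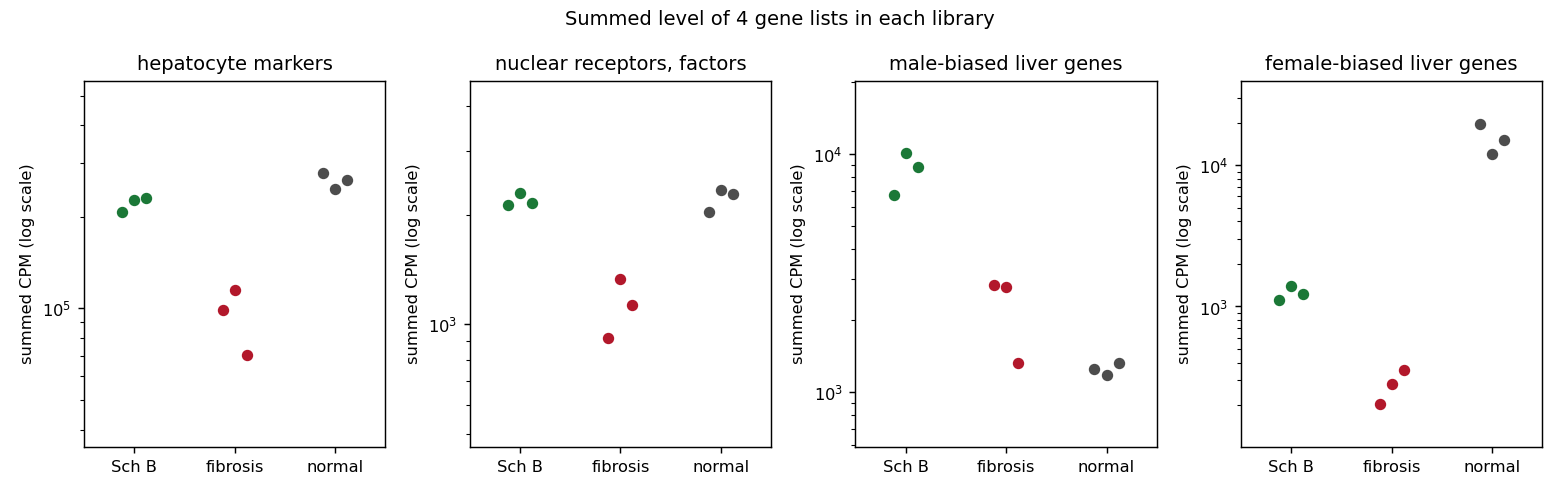
Summed CPM (log scale) of 4 gene lists, with 1 point per library and schisandrin B (Sch B), fibrosis and normal libraries from left to right. Hepatocyte markers and nuclear receptors are lowest in the 3 fibrosis libraries, and female-biased genes are highest in the 3 normal libraries, at 11974 to 19674 CPM. The male-biased sum of 1179 to 1331 CPM in normal libraries includes Hsd17b2 counts, at a mean of 1165 CPM not corrected for length.

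Fibrosis libraries, from CCl4-dosed rats, were set against normal libraries, a comparison in which CCl4 and the difference in sex-linked transcripts cannot be told apart. The sinusoidal uptake carriers Slco1b2 and Slco1a1 and the phospholipid flippase Abcb4 fell. Both drug efflux pumps of the Abcb1 pair rose, and Slc22a8 was present where normal libraries had 0 counts. edgeR called 6 of 9 members, 3 higher and 3 lower, against 48.3% of all tested genes, 25.4% higher and 22.9% lower, so calls of this kind were common in the whole transcriptome. The median change of the 9 members was -0.02 on the log2 scale, beside 0.03 over all tested genes. The groups did not overlap in 6 of the 9 members, 3 higher and 3 lower, against 55.8% of all tested genes, 29% higher and 26.8% lower.

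Schisandrin B libraries, from rats given CCl4 as well, were set against fibrosis libraries. Every uptake member measured and Abcb4 rose, and Abcb1a, Abcb1b and Abcc2 fell. edgeR called 7 of 9 members, 4 higher and 3 lower, against 47.3% of all tested genes, 22.5% higher and 24.8% lower. The groups did not overlap in 7 of the 9 members, 4 higher and 3 lower, against 56.8% of all tested genes, 27.8% higher and 29% lower, and the median change was 0.24, beside -0.03 over all genes on the log2 scale. This comparison and the first share the fibrosis libraries, so their opposite signs are not independent of each other.

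Schisandrin B against normal gave 3 members called, 2 higher and 1 lower, against 10.5% of all tested genes, 5.25% in each direction. Slco1a1 and Slc22a8 were the higher members and Abcc2 the lower. The groups did not overlap in 4 of the 9 members, 3 higher and 1 lower, against 38.7% of all tested genes, 19.9% higher and 18.8% lower, and the median change was 0.22, beside 0 over all genes. Each fold change is a log2 value ± its SE, with the adjusted p of edgeR's quasi-likelihood test over all 14581 genes.

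**Figure D2:**
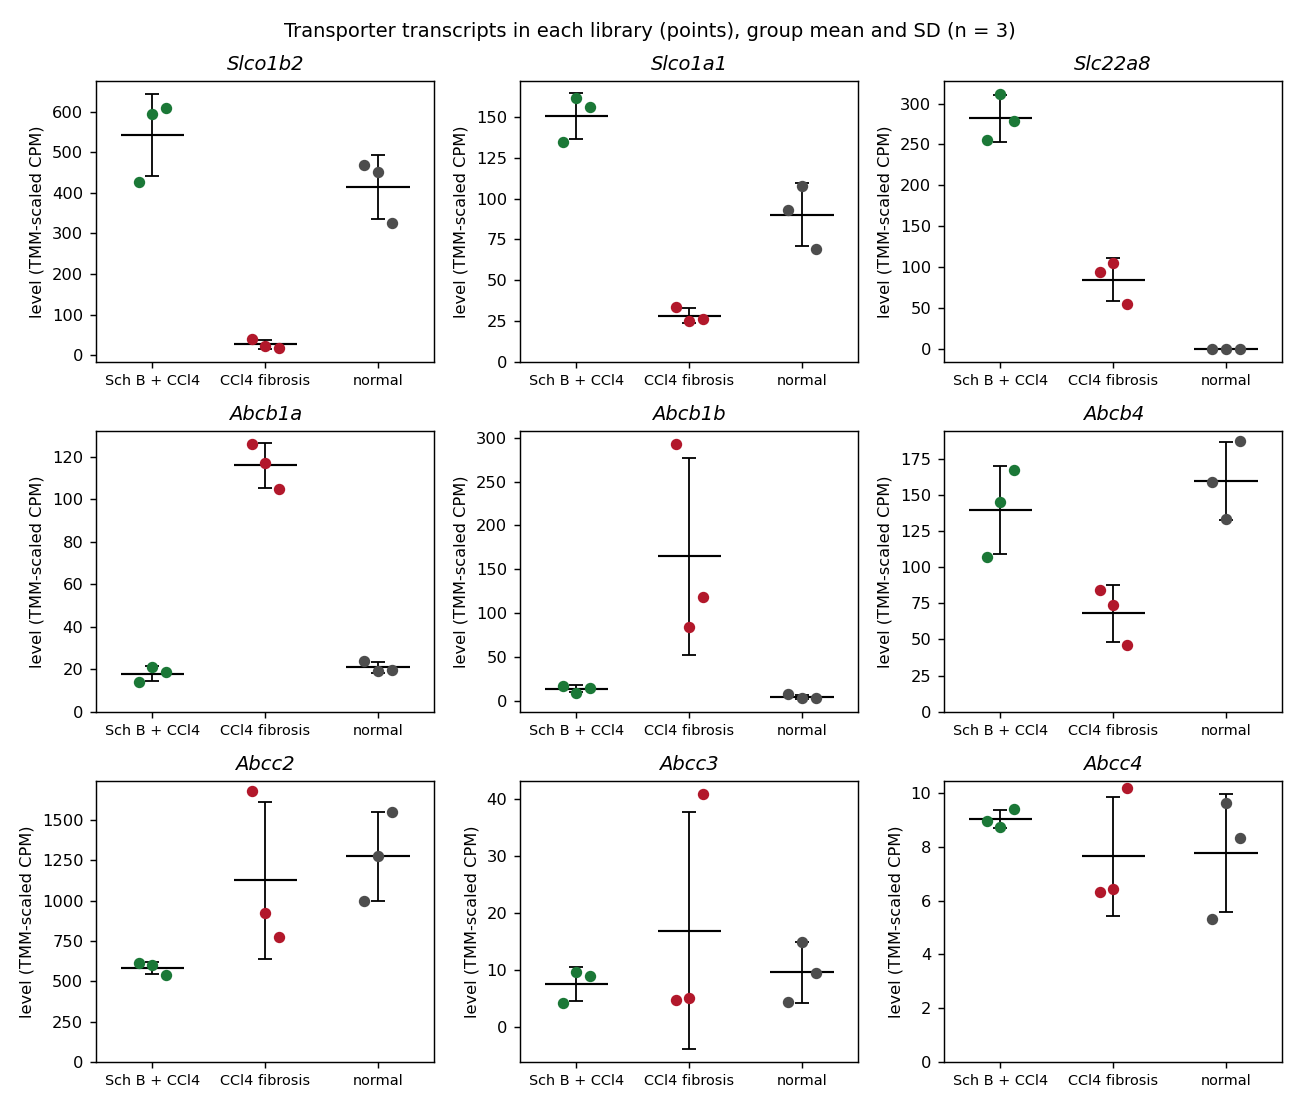
Level of each of 9 transporters in TMM-scaled CPM in schisandrin B with CCl4 (Sch B + CCl4), CCl4 fibrosis and normal libraries, with points for libraries, horizontal lines for means and bars for the SD (n = 3). Slco1b2 and Slco1a1 are lowest in fibrosis libraries, Abcb1a and Abcb1b are highest there, and Slc22a8 is at 0 in all normal libraries.

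Slco1b2 encodes the liver-specific carrier Oatp1b2, which takes up bile acids, bilirubin and many drugs from sinusoidal blood. It had 427, 594 and 608 CPM in schisandrin B libraries, 40.2, 23.1 and 18.9 CPM in fibrosis libraries, and 469, 451 and 325 CPM in normal libraries. The fibrosis libraries lay far below both other groups, which overlapped. Slco1b2 fell in fibrosis against normal by 3.92 ± 0.32 on the log2 scale, a 15.2-fold difference (adjusted p 6.02e-06), and ranked 337th of 14581 genes by the size of its change. Slco1b2 rose in schisandrin B against fibrosis by 4.31 ± 0.33, a 19.9-fold difference (adjusted p 5.84e-06), the 158th largest change. Schisandrin B and normal libraries differed by 0.39 with a 95% interval of -0.23 to 1.01 on the log2 scale (adjusted p 0.426).

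Slco1a1 encodes Oatp1a1, a sinusoidal carrier for bile acids, steroid conjugates and other organic anions, known to be higher in male than in female rodent liver. Its levels were 135, 162 and 156 CPM in schisandrin B libraries, 33.4, 25.1 and 26.2 CPM in fibrosis libraries, and 92.9, 108 and 69.4 CPM in normal libraries. None of the 3 groups overlapped, with schisandrin B highest and fibrosis lowest. Slco1a1 fell by 1.67 ± 0.20 in fibrosis against normal (adjusted p 5.93e-05) and rose by 2.42 ± 0.21 in schisandrin B against fibrosis (9.89e-06). It was also called higher in schisandrin B than in normal libraries, at 0.75 ± 0.20 (adjusted p 0.034). That last call was lost without normal replicate 1 or 3 and without any single schisandrin B replicate, where the adjusted p ranged from 0.0604 to 0.134. Reads of the Slco1a genes can be shared between paralogs, so single values of this family are uncertain.

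Slc22a8 encodes the organic anion transporter Oat3, a basolateral uptake carrier best known from kidney, and reported to be higher in male than in female rat liver. It had 2672, 4281 and 3059 counts in schisandrin B libraries and 1154, 1388 and 935 counts in fibrosis libraries, against 0 counts in each normal library. On the CPM scale the levels were 255, 312 and 279 in schisandrin B, 93.4, 105 and 54.9 in fibrosis, and 0 in normal libraries. With normal libraries set to a floor of 3 counts each, or 0.235 CPM on average, Slc22a8 was at least 1203-fold higher in schisandrin B and at least 360-fold higher in fibrosis libraries. These are counting limits only, and the part of sex in them was not tested, since the Y-linked genes Kdm5d and Eif2s3y followed the same division of the libraries. Slc22a8 rose in schisandrin B against fibrosis by 1.74 ± 0.25, a 3.34-fold difference (adjusted p 0.000435), where both groups carried Y-linked transcripts.

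Of the 10 male-biased genes, 6 were called higher in schisandrin B than in fibrosis libraries too, and 0 lower. Among all tested genes, 22.5% were called higher and 24.8% lower. The list's median change was 1.68 on the log2 scale, beside -0.03 over all genes. The female-biased list moved in the same direction, with 5 of 8 called higher, 1 lower and a median of 1.57. The part of these lists in the change of Slc22a8 and Slco1a1 was not tested.

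Abcb1a and Abcb1b encode the rodent P-glycoproteins, pumps that expel hydrophobic drugs, and Abcb1b is known as the form that rises in injured or regenerating rodent liver. Abcb1a had 14, 21.2 and 18.5 CPM in schisandrin B libraries, 126, 117 and 105 CPM in fibrosis libraries, and 23.8, 19 and 19.8 CPM in normal libraries. Only the fibrosis libraries stood apart, and they were close to each other. Abcb1a rose in fibrosis against normal by 2.47 ± 0.19, a 5.56-fold difference (adjusted p 4.69e-06), and fell by 2.69 ± 0.20 in schisandrin B against fibrosis, a 6.46-fold difference (5.14e-06). Between schisandrin B and normal libraries the difference was -0.22 with a 95% interval of -0.63 to 0.20 (adjusted p 0.513).

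Abcb1b had 17.2, 9.26 and 15 CPM in schisandrin B libraries, 293, 83.6 and 118 CPM in fibrosis libraries, and 7.22, 2.91 and 3.16 CPM in normal libraries. None of the groups overlapped, and fibrosis replicate 1 was 3.51-fold above the lowest fibrosis library. Abcb1b rose in fibrosis against normal by 5.23 ± 0.58, a 37.4-fold difference (adjusted p 6.85e-05, the 167th largest change), or by 4.52 without fibrosis replicate 1 (3.7e-05). Abcb1b fell in schisandrin B against fibrosis by 3.58 ± 0.53, a 12-fold difference (adjusted p 0.00043), and without fibrosis replicate 1 by 2.88 (0.000348). Schisandrin B libraries were 1.65 ± 0.52 above normal libraries without a call (adjusted p 0.0752). Over 18 alternatives that adjusted p ranged from 0.00824 to 0.21, and it passed 0.05 in 4, among them the fit on these 2 groups alone (0.0154).

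Within the pair, Abcb1b took 55%, 30.4% and 44.7% of the joint counts in schisandrin B libraries, 70%, 41.6% and 52.9% in fibrosis libraries, and 23.3%, 13.3% and 13.7% in normal libraries. Every library of both CCl4-dosed groups lay above every normal library, and the 2 CCl4-dosed groups overlapped. Kdm5d and Eif2s3y divided the libraries in the same way, so CCl4 and sex cannot be told apart in this split. The joint level differed in another way: it averaged 31.8 ± 1.55 CPM in schisandrin B, 281 ± 120 CPM in fibrosis and 25.3 ± 4.97 CPM in normal libraries (SD, n = 3). The exact binomial 95% intervals of the shares ran from 26% to 35% in the lowest schisandrin B library and from 19% to 28% in the highest normal library. They cover counting error only, as do the floors, since reads are not independent molecules. The 2 genes are close paralogs, so the authors' counting could have moved reads between them. The share is one of counts, not corrected for transcript length, so only its differences between libraries are read. No test was applied to the share.

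**Figure D3:**
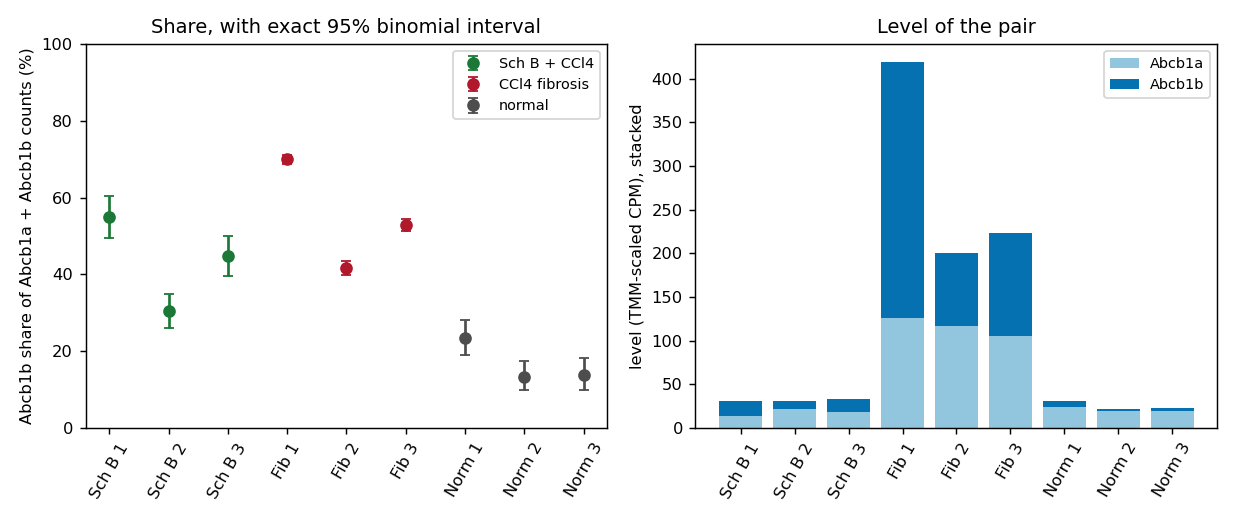
Left, the Abcb1b share (%) of Abcb1a plus Abcb1b counts in each library with its exact 95% binomial interval. Right, the level of the pair in TMM-scaled CPM, stacked, for schisandrin B (Sch B), fibrosis (Fib) and normal (Norm) libraries. The share is 30.4% to 55% in schisandrin B, 41.6% to 70% in fibrosis and 13.3% to 23.3% in normal libraries, while the joint level is high only in fibrosis libraries.

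Abcb4 encodes Mdr2, the canalicular flippase that delivers phosphatidylcholine to bile, and its paralogs are the Abcb1 genes. It had 107, 145 and 167 CPM in schisandrin B libraries, 84.1, 73.9 and 46 CPM in fibrosis libraries, and 159, 133 and 187 CPM in normal libraries. The fibrosis libraries lay below all others, while schisandrin B and normal libraries overlapped. Abcb4 fell by 1.23 ± 0.25 in fibrosis against normal (adjusted p 0.00196) and rose by 1.04 ± 0.25 in schisandrin B against fibrosis (0.00537), a 2.06-fold difference. Schisandrin B differed from normal by -0.19 with a 95% interval of -0.74 to 0.36 (adjusted p 0.681). Abcb4 thus moved opposite to Abcb1a and Abcb1b in both comparisons with fibrosis libraries.

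Abcc2 encodes Mrp2, the canalicular pump for conjugated bilirubin, glutathione conjugates and glucuronides. It had 611, 599 and 538 CPM in schisandrin B libraries, 1683, 921 and 774 CPM in fibrosis libraries, and 998, 1277 and 1549 CPM in normal libraries. The schisandrin B libraries were close together and below all 6 others, while fibrosis and normal libraries overlapped. Abcc2 fell by 0.95 ± 0.29 in schisandrin B against fibrosis, a 1.93-fold difference (adjusted p 0.0188), and by 1.13 ± 0.29 against normal, a 2.19-fold difference (0.0309). Fibrosis and normal libraries differed by -0.18 with a 95% interval of -0.81 to 0.45 (adjusted p 0.631). Both calls for schisandrin B were fragile: against fibrosis the fall was 0.55 without fibrosis replicate 1 (adjusted p 0.0561), and the call was also lost without any single schisandrin B replicate (0.0538 to 0.0707). Against normal it was lost without any single schisandrin B replicate and without normal replicate 2 or 3, with an adjusted p of 0.0783 to 0.123.

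Abcc3 and Abcc4 encode Mrp3 and Mrp4, the sinusoidal pumps that return glucuronides and bile acid conjugates to blood. Abcc3 had 4.11, 9.62 and 8.95 CPM in schisandrin B libraries, 4.78, 4.99 and 40.9 CPM in fibrosis libraries, and 4.29, 14.9 and 9.47 CPM in normal libraries. Fibrosis replicate 3 was 8.57-fold above the lowest fibrosis library, and the groups overlapped in all 3 comparisons. The change was 0.83 ± 0.82 in fibrosis against normal (adjusted p 0.43) and -1.17 ± 0.83 in schisandrin B against fibrosis (0.28), and without fibrosis replicate 3 the values were -0.97 and 0.63. The 95% intervals of the 3 comparisons reached from -1.01 to 2.67, from -3.04 to 0.71 and, for schisandrin B against normal, from -2.22 to 1.55, so differences of several fold were not detectable for this gene.

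Abcc4 had 8.98, 8.75 and 9.4 CPM in schisandrin B libraries, 6.31, 6.43 and 10.2 CPM in fibrosis libraries, and 5.33, 9.62 and 8.34 CPM in normal libraries. The groups overlapped, and the schisandrin B libraries were the closest together, at 9.05 ± 0.332 CPM (SD, n = 3). The change was -0.02 with a 95% interval of -0.63 to 0.58 in fibrosis against normal (adjusted p 0.954), and 0.24 with an interval of -0.36 to 0.84 in schisandrin B against fibrosis (0.505). Against normal libraries schisandrin B differed by 0.22, from -0.39 to 0.82 (adjusted p 0.673). Fibrosis replicate 3 was the highest fibrosis library for both sinusoidal pumps, and normal replicate 2 the highest normal library.

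**Figure D4:**
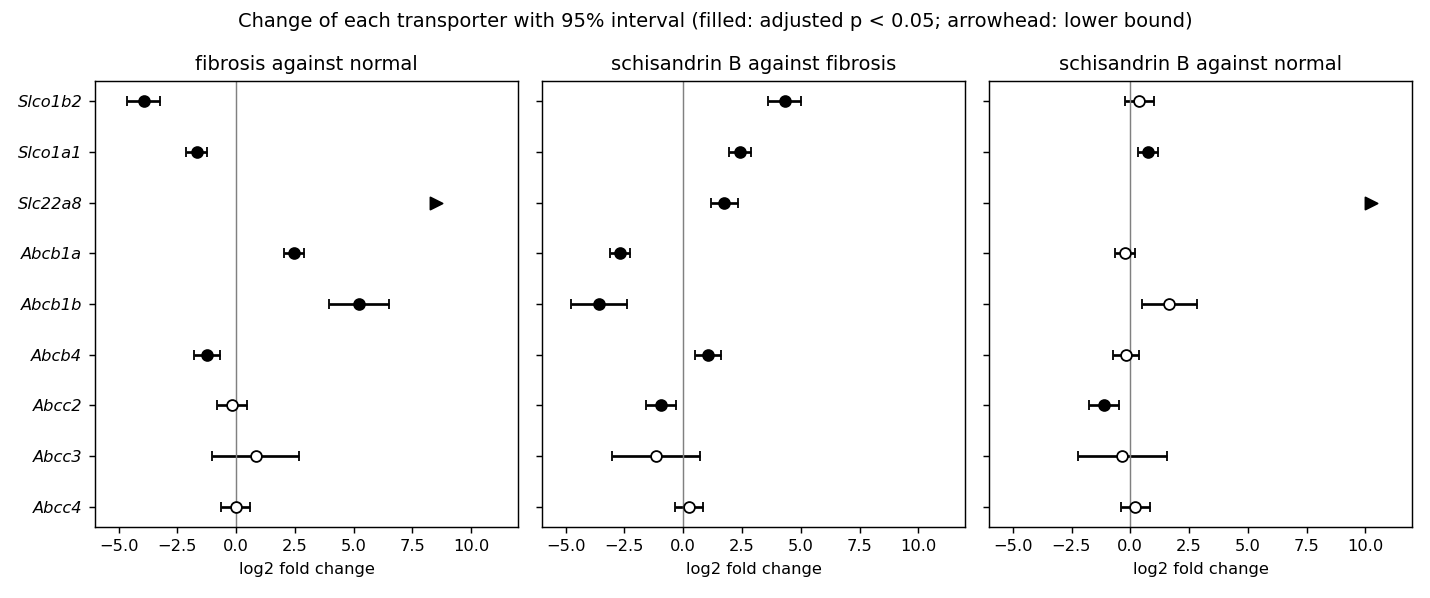
Log2 fold change of 9 transporters in 3 comparisons, with bars for the 95% interval and filled symbols for an adjusted p under 0.05. Arrowheads mark Slc22a8 against normal libraries at its lower bound, at least 360-fold and 1203-fold higher. Slco1b2 stands at -3.92 and 4.31 in the comparisons with fibrosis libraries, and Abcb1b at 5.23 and -3.58.

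Across the 9 libraries, Slco1b2 and Slco1a1 had a Pearson r of 0.968 on log2 CPM, and Abcb1a had an r of -0.961 with Slco1b2 and 0.881 with Abcb1b. Slc22a8 had an r of -0.052 with Slco1a1 and -0.276 with Slco1b2. These values describe libraries that share their groups and are given with no test. The genes most like Slco1b2 were Ttpa (0.996), which encodes the vitamin E transfer protein, Hsd17b2 (0.994) and Tmem50a (0.993). Those most like Slc22a8 were Hsd3b5 (0.996), Ddx3 (0.996) and Cyp3a85-ps (0.995). Hsd3b5, on the male-biased list, had 64.2 ± 14.5 CPM in schisandrin B, 19 ± 6.08 CPM in fibrosis (SD, n = 3) and 0 in normal libraries. Ddx3 had 22.1 ± 2.54, 9.74 ± 3.08 and 0.0512 ± 0.0453 CPM in schisandrin B, fibrosis and normal libraries (SD, n = 3), the division shown by the Y-linked genes Kdm5d and Eif2s3y. Cyp3a85-ps had 99.5 ± 29.9 and 20.4 ± 6.78 CPM in the first 2 groups and 0 in normal libraries. The genes most like Abcb1a were Psmd4 (0.995), a proteasome subunit, Smox (0.995), the spermine oxidase, and Ruvbl1 (0.994). For Abcb1b they were Ppp1r14b (0.991), Usp16 (0.99) and Mst1r (0.986), and for Abcb4 the peroxisomal thiolase Acaa1a (0.982), Apoc1 (0.98) and Immp2l (0.98). Slco1a1 was closest to Amy1a (0.99), Abcc2 to Zbtb4 (0.982), Abcc4 to Ngfrap1 (0.963) and Abcc3 to Hps3 (0.9).

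Other uptake and exchange carriers of liver moved mostly with Slco1b2. Of 23 listed carriers 15 held enough counts to be tested, and in fibrosis against normal 11 fell and 4 rose, with a median of -1.46 on the log2 scale. Among all tested genes, 22.9% were called lower and 25.4% higher there. Slc10a1, the sodium-dependent bile acid carrier Ntcp, had 821 ± 71.5 CPM in schisandrin B, 97.1 ± 36.4 CPM in fibrosis and 719 ± 115 CPM in normal libraries (SD, n = 3). It fell by 2.89 ± 0.27 in fibrosis against normal (adjusted p 1.32e-05) and rose by 3.08 ± 0.28 in schisandrin B against fibrosis (1.23e-05). Slco2b1 and the prostaglandin carrier Slco2a1 fell by 2.07 and 2.19 on the log2 scale in fibrosis libraries. Slc16a1, the lactate carrier Mct1, went the other way, at 3.42 ± 0.35 in fibrosis against normal (2.04e-05) and -3.45 ± 0.35 in schisandrin B against fibrosis (2.52e-05).

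Of the 15 carriers 9 rose in schisandrin B against fibrosis and 3 fell, with a median of 1.27. That stands beside 22.5% higher and 24.8% lower over all tested genes. The peptide carrier Slc15a1 had 1 count over the 3 schisandrin B libraries against 79 over those of fibrosis, and was 65.2-fold lower per count total (95% interval from counting error alone, 11.4 to 2606). Against normal libraries 1 carrier was higher and 2 were lower with schisandrin B, beside 5.25% of all tested genes in each direction. Slc22a25, with 1.02 ± 0.22 CPM in schisandrin B and 0.791 ± 0.482 CPM in fibrosis libraries (SD, n = 3), had 0 counts in normal libraries like Slc22a8, and was at least 4.33-fold and 3.37-fold higher. Slco3a1 fell by 2.60 ± 0.33 in schisandrin B against normal (adjusted p 0.000653), and the nucleoside carrier Slc28a2 fell by 1.66 ± 0.23 (0.0013).

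Genes listed as other efflux transporters, not all of them pumps, were mostly lower in fibrosis libraries or not called. Of 16 genes on that list 12 were tested, and in fibrosis against normal 0 rose and 7 fell, with a median of -0.75, while scaling by library totals gave 2 higher and 4 lower. In that comparison edgeR called 25.4% of all tested genes higher and 22.9% lower. The sterol pumps Abcg5 and Abcg8 fell by 2.96 ± 0.47 and 4.20 ± 0.80 (adjusted p 0.000589 and 0.00205), the drug pump Abcg2 by 2.24 ± 0.39 (0.000696) and Abcc6 by 1.40 ± 0.30 (0.00227). With schisandrin B 8 rose and 0 fell against fibrosis, with a median of 0.85, or 4 and 0 with library totals. The shares over all tested genes were 22.5% higher and 24.8% lower. Abcg5 had 59.1 ± 19.2 CPM in schisandrin B, 2.85 ± 2.06 CPM in fibrosis and 22.4 ± 3.8 CPM in normal libraries (SD, n = 3), and Abcc6 rose by 1.86 ± 0.30 (adjusted p 0.000431). Abcc5, a pump for nucleotide analogues, was the only one called against normal libraries with schisandrin B, at 1.10 ± 0.25 (0.0173).

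**Figure D5:**
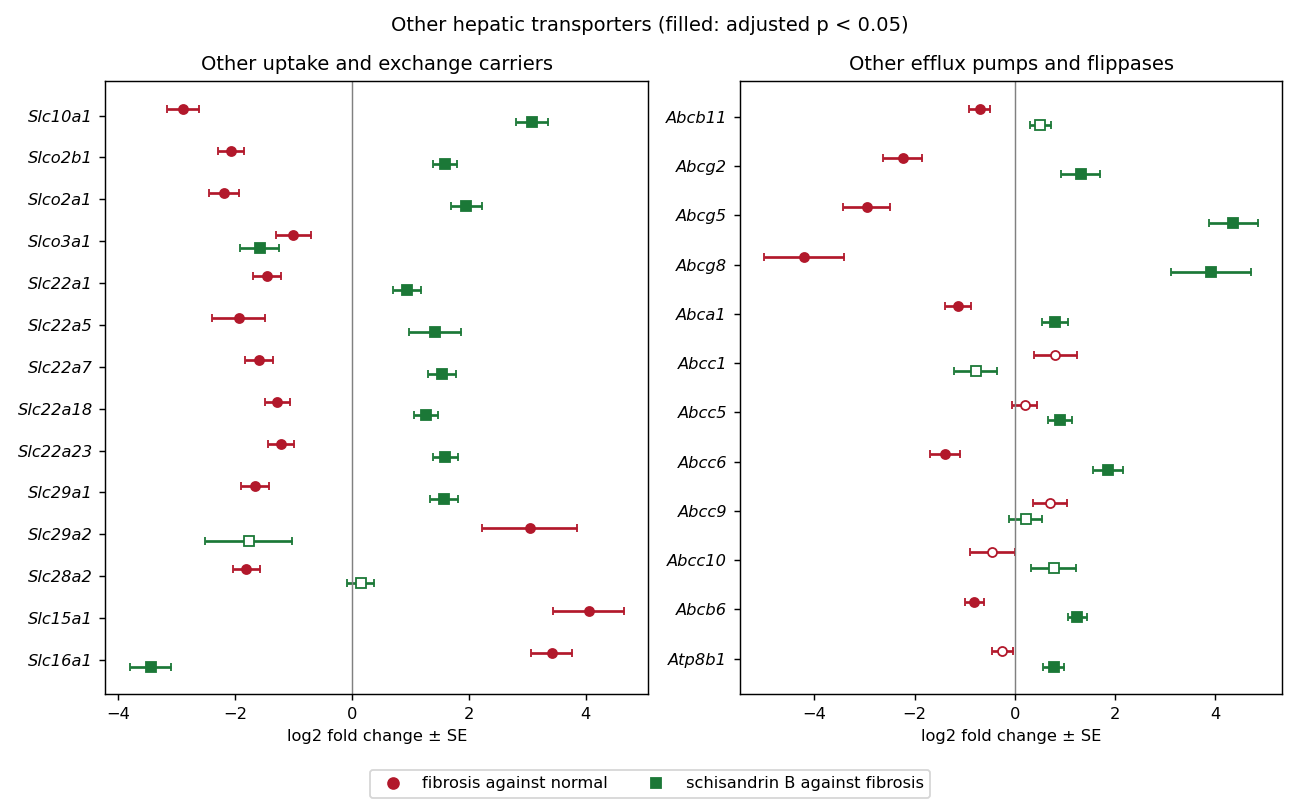
Log2 fold change ± SE of the other tested uptake carriers (left) and genes listed as efflux transporters, not all of them pumps (right), with circles for fibrosis against normal, squares for schisandrin B against fibrosis and filled symbols for an adjusted p under 0.05. Slc22a25, and Slc15a1 in the second comparison, are left out because a group had 0 or 1 count. Most carriers lie below 0 in the first comparison, with Slc10a1 at -2.89, and Slc16a1 lies above it at 3.42.

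Transcription factors known to control hepatic transporters were examined next. Of 17 on the list, 0 were higher and 10 lower in fibrosis against normal (median -0.90), and with library totals 3 were higher and 6 lower. Schisandrin B against fibrosis gave 10 higher and 1 lower (median 0.68), and 7 and 2 with library totals. Over all tested genes, 25.4% were higher and 22.9% lower in the first comparison, and 22.5% and 24.8% in the second. Rxra, the common partner of the xenobiotic and bile acid receptors, had 273 ± 19.6 CPM in schisandrin B, 91.3 ± 6.11 CPM in fibrosis and 243 ± 19.5 CPM in normal libraries (SD, n = 3). The pregnane X receptor Nr1i2 rose by 1.65 ± 0.25 in schisandrin B against fibrosis (adjusted p 0.000297). The constitutive androstane receptor Nr1i3 was highest with schisandrin B, at 75.6 ± 30.8 CPM, against 4.31 ± 2.33 CPM in fibrosis and 7.62 ± 5.1 CPM in normal libraries (SD, n = 3), and was called higher than in normal by 3.32 ± 0.58 (0.00687).

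Bcl6, a repressor known to be higher in male than in female liver, had 56.9 ± 13.2 CPM in schisandrin B, 4.31 ± 1.12 CPM in fibrosis and 2.95 ± 1.4 CPM in normal libraries (SD, n = 3). Cux2, a female-specific liver factor in rodents, had 3.36 ± 2.12, 2.51 ± 1.41 and 144 ± 23.8 CPM in schisandrin B, fibrosis and normal libraries. Cux2 was also on the female-biased list.

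Targets of Nr1i2 and Nr1i3 and of the oxidative stress factor Nrf2 gave separate patterns. Of 11 xenobiotic receptor targets 10 were tested, and 7 rose and 0 fell in schisandrin B against fibrosis (median 1.70). Against normal libraries 4 were higher and 1 lower. Cyp2b2, a classical target of Nr1i3, was higher than in normal libraries by 3.56 ± 0.58 (adjusted p 0.00549). Cyp3a2, at 2425 ± 574 CPM in schisandrin B, 363 ± 121 CPM in fibrosis and 1.76 ± 1.29 CPM in normal libraries (SD, n = 3), is also male-specific in rats and stood on that list. In fibrosis against normal 2 targets, Cyp3a2 and Cyp3a18, were higher and 4 lower (median -0.01), with library totals 4 and 3. For these targets too, treatment and sex cannot be told apart in comparisons with normal libraries. Of 15 Nrf2 targets 9 rose and 2 fell in fibrosis against normal (median 1.35), and 2 rose and 11 fell in schisandrin B against fibrosis (median -2.29). Beside both lists, edgeR called 25.4% of all tested genes higher and 22.9% lower in fibrosis against normal. These shares were 22.5% and 24.8% in schisandrin B against fibrosis, and 5.25% each in schisandrin B against normal. Srxn1, which repairs oxidised peroxiredoxins, had 19.7 ± 6.84, 1299 ± 448 and 15.7 ± 4.84 CPM in schisandrin B, fibrosis and normal libraries (SD, n = 3).

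Genes listed for membrane scaffolds and trafficking were mixed, with 2 of 9 higher and 3 lower in fibrosis against normal. In schisandrin B against fibrosis 5 were higher and 4 lower, where library totals gave 2 higher and 4 lower. All tested genes gave 25.4% higher and 22.9% lower in the first comparison, and 22.5% and 24.8% in the second. Pdzk1, which in mice keeps Oatp1a1 at the sinusoidal membrane, had 51.6 ± 5.84 CPM in schisandrin B, 6.43 ± 1.99 CPM in fibrosis and 107 ± 7.43 CPM in normal libraries (SD, n = 3). It fell by 4.07 ± 0.23 in fibrosis against normal (adjusted p 8.54e-07), rose by 3.01 ± 0.23 in schisandrin B against fibrosis (5.68e-06) and was still below normal with schisandrin B, at -1.06 ± 0.21 (0.00822). Rdx, radixin, which in mice anchors Mrp2 at the canaliculus, fell by 0.98 ± 0.15 in fibrosis against normal (0.000265) and rose by 0.69 ± 0.15 in schisandrin B against fibrosis (0.00272). Ezr, ezrin, did the opposite, at 0.90 ± 0.26 (0.0131) and -1.41 ± 0.26 (0.00112).

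Markers of other liver cells were checked beside these changes. Of 8 bile duct cell markers 5 were tested, and 3 rose in fibrosis against normal and 2 fell in schisandrin B against fibrosis. The sum of all 8 was 13.8 to 29.8 CPM in schisandrin B, 53.8 to 64.8 CPM in fibrosis and 20.3 to 25.1 CPM in normal libraries, highest in fibrosis libraries. Most of it there was Epcam and Krt19, at means of 41.9 and 11.9 CPM. Sox9 was not higher in fibrosis, at a mean of 0.629 CPM against 0.913 CPM in normal libraries. The sum of the 8 endothelial markers was 365 to 433, 361 to 438 and 443 to 564 CPM in schisandrin B, fibrosis and normal libraries, and that of the 7 macrophage markers with a row 654 to 967, 661 to 1350 and 1107 to 1713 CPM. The 9 stellate cell markers summed to 464 to 631, 264 to 444 and 249 to 393 CPM, and the 8 lymphocyte markers to 21.5 to 24.8, 7.72 to 22.4 and 14.5 to 29.5 CPM, in the same group order.

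The stellate cell sum was higher in every schisandrin B library than in all others, and the endothelial sum was higher in every normal library. Single markers moved both where these sums lay apart and where they overlapped. Of the 9 stellate cell markers, Dcn, Des and Acta2 rose and Lrat fell in fibrosis against normal, and Lrat, which makes the retinyl esters that quiescent stellate cells store, fell by 3.45 ± 0.31 (adjusted p 9.82e-06). Lrat, Lum, Col3a1 and Col1a1 rose and Des and Acta2 fell in schisandrin B against fibrosis, with Lrat at 3.87 ± 0.31 (7.51e-06), while library totals gave 2 higher and 2 lower. Dcn, Lum and Col1a1 were higher with schisandrin B than in normal libraries. Of the 8 endothelial markers, Kdr, Clec4g and Stab2 fell and 0 rose in fibrosis against normal, while library totals gave 1 lower and 2 higher. Kdr and Stab2 rose and 0 fell in schisandrin B against fibrosis, while library totals gave 0 and 4. Of 5 lymphocyte markers tested, Nkg7, Cd79b, Cd3e and Cd8a fell in fibrosis against normal, or 1 of 5 with library totals, and Nkg7 rose in schisandrin B against fibrosis, or 0 with library totals. Of 7 macrophage markers, Clec4f fell in fibrosis against normal, or 0 with library totals. In schisandrin B against fibrosis edgeR called 0 of them, or 3 lower with library totals. There 3 had an unadjusted p under 0.05, with Marco and Cd163 lower and C1qa higher. Beside these counts, edgeR called 48.3% of all tested genes in fibrosis against normal and 47.3% in schisandrin B against fibrosis. The part of these cells in the transporter changes was not tested.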

How the data were processed

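For 9 libraries the authors deposited 1 table of unnormalized counts by gene symbol. The aligner and the counting tool: not given in the sources used here. Labels name the mouse and, per the submitters' processing notes, build GRCm38, but give a rat strain, and the gene symbols are those of rat. No sequence or position is therefore printed, and no value is corrected for gene length, so levels of different genes are not ranked. Sums over lists and the share within the Abcb1 pair are of counts and are read between libraries. Libraries were grouped by source name.

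Counts were tested in edgeR 4.0.16 under R 4.3.3: filterByExpr (14581 of 37203 genes kept), TMM scaling, and robust quasi-likelihood F tests with 1 mean per group over all 9 libraries. Adjusted p under 0.05 is a call, with no limit on fold, and "rose" and "fell" mean called. SEs come from the log2 fold change and its F value. CPM are TMM-scaled. The floor is 3 counts per library. The method was tested on simulated data. Alternatives were other scalings, filters, DESeq2 1.42.0, limma 3.58.1 voom, fits on 2 groups, omission of the 20 most counted genes, and omission of each library. Figures used Python 3.11.15 and matplotlib 3.10.9.

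The members and lists were chosen with earlier results of these data known. Genes named besides members are the up to 4 with the lowest adjusted p per list among those called, Alb and the Y-linked genes, and the 3 most correlated with each member (log2 CPM, prior count 2). A result that this rule would name is not reported here. Stated medians include genes with a group at 0 at their fitted value.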

Additional observations from a re-analysis of the deposited data

How the results depend on the processing

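The 6 members called in fibrosis against normal and 6 of the 7 called in schisandrin B against fibrosis (all but Abcc2) kept their direction and call under all 18 alternatives. In schisandrin B against normal, 2 members were called higher, and 1 to 3 with a library left out. There 1 member was called lower, and 0 to 1 with a library left out. All genes called in that comparison numbered 1531, against 2951 with only these 2 groups fitted and 702 to 2814 with a library left out. Uncalled changes varied as follows, and some of them turned sign. In the main fit, Abcc2, Abcc3 and Abcc4 were -0.18, 0.83 and -0.02 in fibrosis against normal. Abcc3 and Abcc4 were -1.17 and 0.24 in schisandrin B against fibrosis, and Abcc3 was -0.34 in schisandrin B against normal. In fibrosis against normal, Abcc2 was 0.22 with library totals and 0.03 without fibrosis replicate 3, and was called at -0.59 without fibrosis replicate 1 (adjusted p 0.0456; range over alternatives 0.0456 to 0.964). Abcc3 was -0.97 without fibrosis replicate 3 and 1.30 without normal replicate 2. Abcc4 was 0.43 with library totals, 0.00 with no filter, and 0.16, 0.03, 0.10 and 0.09 without normal replicate 2, normal replicate 3, fibrosis replicate 1 and fibrosis replicate 2. Abcc4 was lowest there, at -0.28, without fibrosis replicate 3. In schisandrin B against fibrosis, Abcc3 was -1.61 without fibrosis replicate 1 and 0.63 without fibrosis replicate 3 and Abcc4 was -0.06 with library totals. In schisandrin B against normal, Abcc3 was -0.69 without normal replicate 1 and 0.14 without normal replicate 2. The causes were not tested. Library totals shifted the median gene by 0.43, -0.27 and 0.16 on the log2 scale in the 3 comparisons, and the share of calls that were higher from 52.7% to 74.7%, from 47.6% to 32.6% and from 50% to 70.3%. Upper-quartile factors shifted the first 2 by -0.11 and 0.13. Where an omission left 2 libraries in a group, the fit took their spread from all groups. No paired analysis was possible because the labels give no replicate numbers. The planned share of Slco1a4 in the Slco1a pair was not run.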

Other observations

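Enzymes that make the conjugates carried by these pumps were listed too. Of 15 conjugation genes 12 were tested, and in fibrosis against normal 2 rose and 7 fell (median -1.01), while in schisandrin B against fibrosis 8 rose and 1 fell (median 1.23). The shares of all tested genes were 25.4% higher and 22.9% lower in the first comparison, and 22.5% and 24.8% in the second. Gsta4, a glutathione transferase for lipid aldehydes, fell by 1.94 ± 0.18 in fibrosis against normal (edgeR adjusted p 1.04e-05). The glucuronosyltransferase Ugt2b17 fell by 2.24 ± 0.33 (0.000255) and rose by 2.53 ± 0.34 in schisandrin B against fibrosis (0.000136). Gstm1 was among the 2 that rose in fibrosis libraries, at 1.67 ± 0.27 (0.000385). Ugt1a1, which conjugates bilirubin, rose by 1.23 ± 0.24 in schisandrin B against fibrosis (0.0013) and was 1.03 ± 0.23 higher than in normal libraries (0.0179).

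All other rows whose symbols start with Slco, Slc22a, Abcb, Abcc or Abcg were collected after the values had been seen, 55 in number with 36 tested. In fibrosis against normal 1 was higher and 24 lower (median -1.19), and with library totals 4 and 17. In schisandrin B against fibrosis 24 were higher and 1 lower (median 1.10), and with library totals 18 and 2. Among all tested genes, 25.4% were higher and 22.9% lower in the first comparison, and 22.5% and 24.8% in the second. Slco1a2, a row of the Slco1a family whose relation to Slco1a4 was not checked and which may hold its counts, had 127 ± 46.5 CPM in schisandrin B, 14.8 ± 5.51 CPM in fibrosis and 76.9 ± 10.4 CPM in normal libraries (SD, n = 3). Of the 2 rows called higher in schisandrin B than in normal libraries, Abcc5 and Slc22a25, the second had 0 counts in all normal libraries.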
